A study of Mus musculus with 22 samples.

Results

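Tight junctions seal the gap between neighbouring epithelial cells, and 10 genes of that structure were followed in the small intestine of mice by bulk RNA sequencing. They were 7 claudins (Cldn2, Cldn3, Cldn4, Cldn7, Cldn8, Cldn15 and Cldn23), occludin (Ocln), the scaffold gene Tjp1, which encodes ZO-1, and F11r, which encodes junctional adhesion molecule A. The genes were chosen by name from the 54838 genes of the deposited table and all 10 were found there by their Ensembl identifiers. The mice were females on an FVB/NJ background, 8 to 14 weeks old, with a wild-type glucocorticoid receptor (GRWT) or with a point mutant receptor that forms dimers less well (GRDim). For 7 days the animals received either plain drinking water or ZnSO4 at 25 mM in it. Either GRWT condition (water, zinc) had 5 libraries and either GRDim condition had 6. The mutation is carried by every cell of the animal, so an epithelial and a non-epithelial effect are not separated by the model, and a point mutation cannot be checked from counts per gene.

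Claudins are small membrane proteins whose outer loops meet between cells and set which ions and how much water can pass. Cldn3, Cldn4, Cldn7 and Cldn8 are usually counted among the sealing claudins, whereas Cldn2 and Cldn15 form channels for small cations in the gut. Occludin is another membrane protein of the junction, Tjp1 ties junction proteins to actin, and F11r is an immunoglobulin-like adhesion molecule found at the same contacts. In the intestine the mix of claudins changes along the gut and from crypt to villus, and it helps to set how leaky the lining is.

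The libraries were described apart for high and low content of smooth muscle, because Myh11, the myosin of smooth muscle, split them widely. It stood at 298 to 463 CPM (counts scaled to library size) in 12 muscle-rich libraries and at 3.22 to 20.5 CPM in 10 muscle-poor ones, with 100 CPM as the dividing line. These Myh11 values are scaled to library totals, whereas all other levels are CPM after TMM normalisation (trimmed mean of M-values). The split did not follow the tissue labels. The muscle-rich set took 5 of the 12 ileum-labelled libraries and 7 of the 10 labelled IEC (intestinal epithelial cells, scraped from about 5 cm of distal ileum). In the muscle-rich set all 3 GRDim libraries on water were labelled IEC and all 3 GRDim libraries on zinc were labelled ileum, whereas either GRWT condition held 1 ileum and 2 IEC libraries. In the muscle-poor set both GRWT conditions (2 libraries each) and GRDim on water (3 libraries) were labelled ileum, and GRDim on zinc (3 libraries) was labelled IEC. Label and zinc therefore cannot be told apart in GRDim mice of either set from those libraries alone. A single library, GRWT zinc ileum replicate 3 of the muscle-poor set, stood apart from the rest. Fabp6, the bile acid binding protein of the ileum, was at 18.3 CPM there and at 3967 CPM or more in each of the other 21 libraries. The sum of 6 proximal small-intestine markers was 6580 CPM there, against 162 to 229 CPM in muscle-rich and 173 to 247 CPM in the other muscle-poor libraries. The main results of the muscle-poor set are therefore given with and without it. Mt1, a metallothionein induced by zinc, fitted the drinking-water labels, with 27.2 to 167 CPM in all 11 libraries on water and 1229 to 4499 CPM in all 11 on zinc. All 10 epithelial markers were detected in every library, with sums of 13040 to 16590 CPM in muscle-rich and 20143 to 24644 CPM in muscle-poor libraries. Totals ran from 13149951 to 15620744 counts per library, so that 3 counts, taken as the detection floor, equal 0.177 to 0.320 normalised CPM. In bulk RNA, fewer cells of a type and less RNA per cell cannot be told apart. Nothing in the labels ties a library to a separate animal, so p-values measure the spread between libraries.

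The genes lie apart in the genome except for Cldn3 and Cldn4, which are neighbours on opposite strands of chromosome 5 (mouse build GRCm38, which is mm10). Cldn4 spans chr5:134945119-134946934 on the minus strand and Cldn3 spans chr5:134986214-134987472 on the plus strand, each as 1 exon. Cldn3 shares 40 bases of exon with Wbscr25 on the other strand, but that gene had 77 counts over all libraries together, against 3981 or more counts of Cldn3 in each library. Ocln spans chr13:100496507-100552718 on the minus strand and Cldn2 spans chrX:139800828-139811386 on the plus strand. RefSeq promoter windows on GRCm38.p6 were matched for 8 of the 10 genes, with Cldn8 and Cldn23 left unmatched. The 250 bases before the start site are shown for Cldn3, Cldn4 and Ocln, the 3 genes that passed the test in both directions described later, and for Cldn2, whose window differs from the rest. They read 5′ to 3′ on the gene's strand, from chr5:134985964-134986213 for Cldn3, chr5:134946935-134947184 for Cldn4, chr13:100552719-100552968 for the first window of Ocln and chrX:139800558-139800807 for Cldn2. Capitals mark matches on either strand to the GC box (GGGCGG), the TATA box (TATAAA) and a glucocorticoid receptor half-site (AGAACA).
Cldn3: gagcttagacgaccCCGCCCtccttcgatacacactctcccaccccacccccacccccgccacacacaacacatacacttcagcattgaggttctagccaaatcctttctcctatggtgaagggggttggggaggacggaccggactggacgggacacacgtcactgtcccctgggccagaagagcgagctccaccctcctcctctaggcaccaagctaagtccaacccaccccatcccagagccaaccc
Cldn4: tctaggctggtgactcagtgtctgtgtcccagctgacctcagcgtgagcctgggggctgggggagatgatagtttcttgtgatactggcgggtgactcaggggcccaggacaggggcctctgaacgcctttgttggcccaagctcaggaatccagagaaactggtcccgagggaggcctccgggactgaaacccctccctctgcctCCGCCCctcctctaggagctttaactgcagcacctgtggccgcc
Ocln: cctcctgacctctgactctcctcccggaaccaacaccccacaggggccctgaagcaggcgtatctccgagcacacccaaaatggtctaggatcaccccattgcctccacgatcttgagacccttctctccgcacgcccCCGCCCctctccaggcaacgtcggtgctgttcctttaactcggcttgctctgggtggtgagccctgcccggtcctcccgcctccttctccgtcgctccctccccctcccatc
Cldn2: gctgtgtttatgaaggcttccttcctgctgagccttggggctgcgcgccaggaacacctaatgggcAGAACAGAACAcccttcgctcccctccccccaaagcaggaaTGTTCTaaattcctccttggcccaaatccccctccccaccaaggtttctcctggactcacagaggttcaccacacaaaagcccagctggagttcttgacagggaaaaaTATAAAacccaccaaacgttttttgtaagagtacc
A GC box was present in a window of 7 of the 8 matched genes, Cldn2 being the exception, against 32.7% of all 32851 promoter windows of that length (for Cldn7 in the second of its windows only). Cldn2 alone among them held a TATA box, 35 bases before the start, and alone held half-sites, 3 in number, of which a pair overlap. These letters were present in 12.4% and 16.1% of all windows. The palindromic element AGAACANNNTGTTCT was in none of the 8 genes' windows and in 0.00913% of all windows. A match of letters is a description of sequence and not a binding site.

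Compared per kilobase (kb) of exon, Cldn7 was the most abundant of the 10 genes in the muscle-rich libraries, at a median of 427 CPM per kb. Cldn3 followed at 295, then Cldn15 at 144, Cldn2 at 123, F11r at 98.2, Cldn4 at 59.7, Ocln at 59.5, Cldn23 at 29.3, Tjp1 at 19.9 and Cldn8 at 10.97 CPM per kb. The ranges over the 12 libraries overlapped for Cldn15 and Cldn2, for Cldn2 and F11r, and for Cldn4 and Ocln, so these neighbours in the order were not separated beyond their spread. Cldn7 (374 to 488 CPM per kb) and Cldn3 (234 to 354 CPM per kb) were apart from each other and from the genes under them. The plot of levels per length shows a like order in the muscle-poor set, from Cldn7 at a median of 628 to Cldn8 at 3.87 CPM per kb, with F11r (130.5 CPM per kb) above Cldn2 (112 CPM per kb) there. Without GRWT zinc ileum replicate 3 the medians were 623 CPM per kb for Cldn7, 128 for F11r, 112 for Cldn2 and 3.97 for Cldn8.

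**Figure D1:**
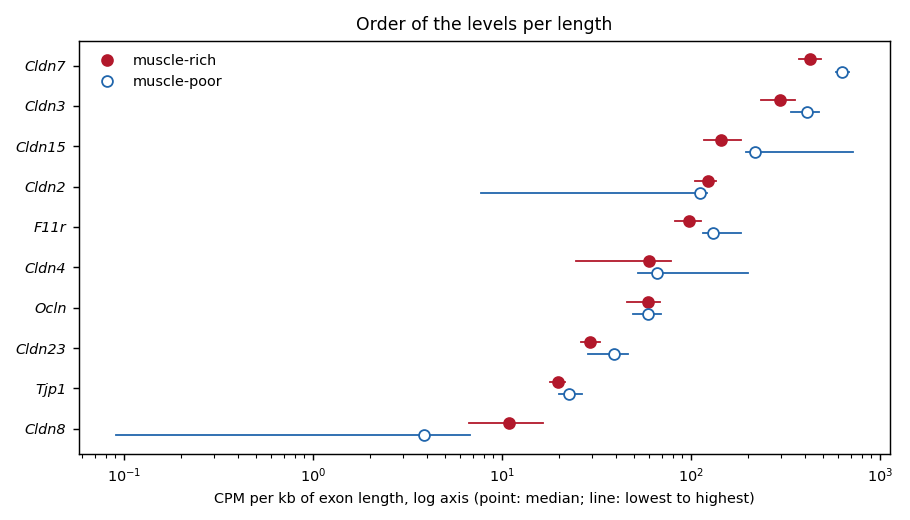
Level of each of the 10 genes in CPM per kb of exon length on a log axis, as the median (point) and the lowest to highest library (line) of 12 muscle-rich and 10 muscle-poor libraries. Cldn7 is highest and Cldn8 lowest in both sets, and the long lines of Cldn2, Cldn4, Cldn8 and Cldn15 in the muscle-poor set end in GRWT zinc ileum replicate 3.

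The main difference in these genes was between the genotypes on normal water. In the muscle-rich libraries 7 of the 10 genes were lower in GRDim than in GRWT mice and passed the test (edgeR quasi-likelihood, Benjamini-Hochberg adjusted p under 0.05 over all 15947 genes tested), and 0 were higher. This was read against a background of 18.9% of all genes called lower and 19.7% called higher in that comparison. The median log2 fold change of the 10 genes was -0.34, against -0.0028 for all genes tested. The sealing claudins Cldn4 and Cldn8 had the largest differences, and these were the 2 genes of the list that also passed the cut of 0.8 on the log2 scale that the study used, which 5.47% of all genes passed in the lower direction. The libraries of the genotypes did not overlap for 9 of the 10 genes, each lower in GRDim, as was so for 27.9% of all genes tested. Cldn23 was the exception.

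Cldn4, a sealing claudin, had 125, 122 and 87.0 CPM in the muscle-rich GRWT libraries on water and 67.5, 57.3 and 45.0 CPM in those of GRDim. The lowest GRWT library was above the highest GRDim library. The log2 fold change was -0.96 ± 0.20 (SE, 3 against 3 libraries, adjusted p = 0.00483), or 1.95-fold lower. Cldn8, also a sealing claudin and the least abundant of the list, had 33.3, 30.5 and 26.7 CPM in GRWT and 15.7, 16.9 and 18.1 CPM in GRDim on water. The GRDim values were close together and all under the GRWT values. The log2 fold change of Cldn8 was -0.82 ± 0.13 (SE, adjusted p = 0.000219). Cldn3, the neighbour of Cldn4, had 446, 385 and 363 CPM in GRWT and 303, 295 and 295 CPM in GRDim. The log2 fold change of Cldn3 was smaller, -0.40 ± 0.07 (SE, adjusted p = 0.000507), and the groups did not overlap. Cldn7, the most abundant claudin, had 877, 816 and 835 CPM in GRWT and 756, 753 and 729 CPM in GRDim. Its log2 fold change of -0.16 ± 0.07 (SE, 95% interval -0.30 to -0.01) did not pass after adjustment (adjusted p = 0.0787). Cldn23 had 60.9, 50.5 and 49.0 CPM in GRWT and 59.6, 55.8 and 52.4 CPM in GRDim. The groups overlapped and the log2 fold change was 0.08 ± 0.08 (SE, 95% interval -0.09 to 0.26).

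Both channel-forming claudins were lower in GRDim in level, and Cldn15 passed the test. Cldn15 had 372, 334 and 353 CPM in GRWT and 266, 251 and 252 CPM in GRDim on water. It was lower without overlap, with a log2 fold change of -0.45 ± 0.09 (SE, adjusted p = 0.000928). Cldn2 had 432, 454 and 431 CPM in GRWT and 399, 372 and 367 CPM in GRDim. The log2 fold change of Cldn2 was -0.19 ± 0.08 (SE, 95% interval -0.37 to -0.02), and it did not pass (adjusted p = 0.0749). The difference between the fold changes of Cldn15 and Cldn2 was not tested.

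The junction genes outside the claudin family were lower as well. Ocln had 292, 282 and 269 CPM in GRWT and 198, 210 and 195 CPM in GRDim on water. With a log2 fold change of -0.47 ± 0.06 (SE), occludin had the smallest adjusted p of the list (4.07e-05). F11r had 287, 271 and 262 CPM in GRWT and 220, 228 and 218 CPM in GRDim, a log2 fold change of -0.28 ± 0.07 (SE, adjusted p = 0.00501). Tjp1 had 167, 164 and 169 CPM in GRWT and 145, 150 and 141 CPM in GRDim, the smallest difference that passed, with a log2 fold change of -0.18 ± 0.06 (SE, adjusted p = 0.0326). Its call was held in 7 of the 12 fits that left out 1 library and lost without GRWT water replicate 1, 4 or 5 or GRDim water replicate 4 or 6, with log2 fold changes of -0.15 to -0.19 and adjusted p of 0.052 to 0.119. The plot of fold changes shows these values beside the other comparisons.

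**Figure D2:**
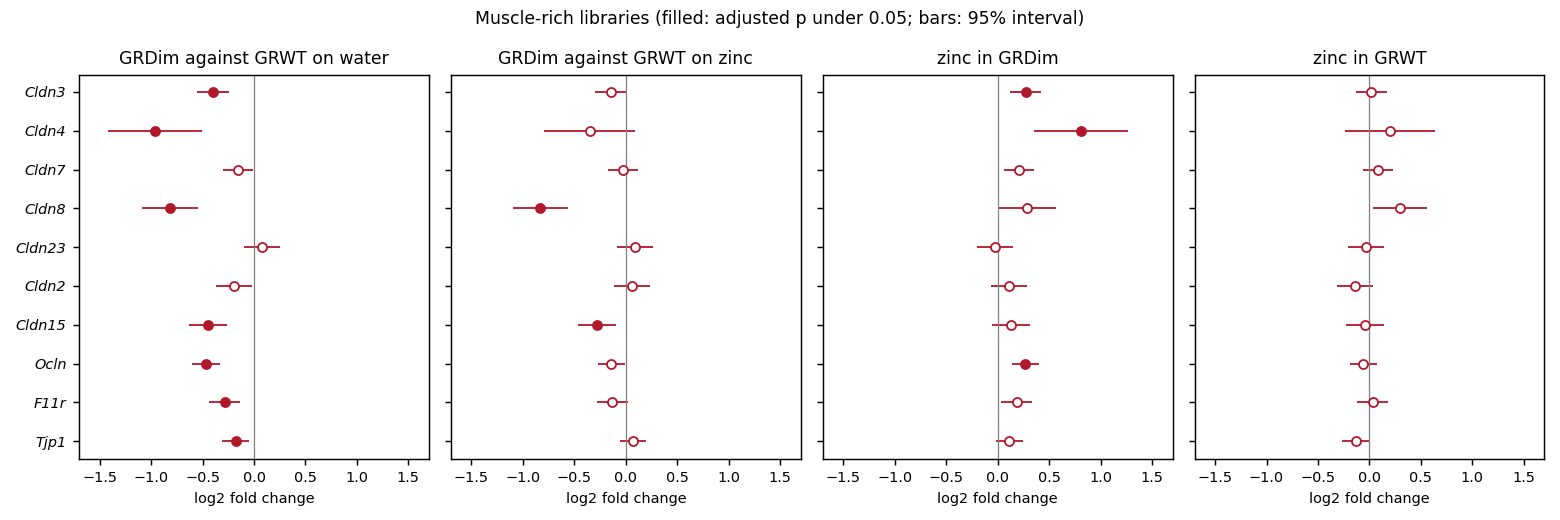
Log2 fold change of each gene in the 12 muscle-rich libraries in 4 comparisons, with 95% intervals as bars and filled points where the adjusted p was under 0.05. On water 7 points are filled and all lie left of 0, from -0.18 for Tjp1 to -0.96 for Cldn4, while zinc in GRWT has no filled point.

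Because the GRDim libraries on water were all labelled IEC, the comparison was repeated without the single ileum-labelled GRWT library (GRWT water ileum replicate 1), which left 2 IEC libraries of GRWT and 3 of GRDim. Then 6 genes of the list passed, all lower, against 15.9% of all genes, and Tjp1 was lost (log2 fold change -0.17, adjusted p = 0.0663). With the tissue label as a covariate in all 12 muscle-rich libraries, 8 genes passed as lower, against 18.2% of all genes, Cldn2 being added at a log2 fold change of -0.24 ± 0.08 (SE, adjusted p = 0.0331). The label term of that fit comes from the GRWT libraries alone, since only GRWT conditions held both labels, and is carried over to GRDim mice. These fits were chosen after the data had been seen.

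Markers of other cell types also differed between these libraries. The sum of 8 leukocyte markers was 1410 to 1821 CPM in GRWT and 3830 to 4760 CPM in GRDim on water, with 6 of the 8 genes higher and no marker of the list at 0 in any of the 12 libraries. The sum of 10 villus enterocyte markers was 16405 to 18733 CPM in GRWT and 10349 to 10676 CPM in GRDim, and 5 of the 9 tested were lower, with Lct at 0 in at least 1 library. The Paneth cell sum was 6564 to 7939 against 2256 to 2427 CPM and the goblet cell sum 12703 to 12718 against 8198 to 8868 CPM. The sum of the 10 epithelial markers was close in both genotypes but did not overlap, with 14109 to 14360 CPM in GRWT and 14404 to 15361 CPM in GRDim, where 3 markers were higher and 2 lower, among them Epcam with a log2 fold change of -0.30. The sum of 6 ileal segment markers was 9340 to 10834 CPM in GRWT and 5641 to 7086 CPM in GRDim, with 4 of the 6 lower, and the smooth muscle sum was 2313 to 2532 against 1755 to 1986 CPM, with 6 of 10 lower. The part of these cell types and of gut position in the claudin result was not tested. When the libraries were scaled to the epithelial markers in place of all genes, 9 of the 10 genes were lower and passed, Cldn23 being the exception, against 18.7% of all genes. Cldn4 then had a log2 fold change of -0.99 ± 0.17 (SE).

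On zinc the genotypes differed in fewer of these genes. In the muscle-rich libraries 2 of the 10, Cldn8 and Cldn15, were lower in GRDim than in GRWT and 0 were higher, against 9.00% of all genes called lower and 9.81% called higher. Cldn8 had 38.9, 36.9 and 34.8 CPM in GRWT on zinc and 25.0, 20.9 and 16.7 CPM in GRDim on zinc. The groups were apart, and the log2 fold change of -0.83 ± 0.13 (SE, adjusted p = 0.000564) was of the size seen on water. It also passed the cut of 0.8, which 1.97% of all genes passed in that direction. Cldn15 had 305, 329 and 390 CPM in GRWT and 287, 305 and 260 CPM in GRDim on zinc, so that the highest GRDim library lay just under the lowest GRWT library. Its log2 fold change was -0.28 ± 0.09 (SE, adjusted p = 0.0363). That call was held in 5 of the 12 fits that left out 1 library, and the value was smallest without GRWT zinc replicate 5, at -0.17 (adjusted p = 0.155). Cldn3 was the other gene whose libraries did not overlap (386 to 418 against 355 to 381 CPM), at a log2 fold change of -0.15 ± 0.07 (SE, adjusted p = 0.169), so that 3 genes had no overlap, as 16.6% of all genes did. With the tissue label as covariate Cldn8 passed (log2 fold change -0.95 ± 0.14, SE, adjusted p = 0.000907) and Cldn15 did not (-0.25 ± 0.11, SE, adjusted p = 0.151), against 7.43% of all genes called lower. Scaling to epithelial markers gave 6 genes lower, against 19.9% of all genes, and moved the median of all genes by -0.13 in this comparison, so that values such as that of Cldn7 (-0.16 ± 0.05, SE) lie close to the shift itself. Markers differed here too, the leukocyte sum being 1097 to 1847 CPM in GRWT and 3470 to 4378 CPM in GRDim on zinc and the Paneth cell sum 6044 to 8127 against 1893 to 4296 CPM. The epithelial sum was higher in GRDim without overlap, at 16091 to 16590 CPM against 13040 to 14938 CPM, with 4 of the 10 markers higher, and the goblet cell sum was lower, at 8804 to 10616 against 12129 to 13511 CPM, with 3 of 8 lower. The part of these markers was not tested.

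Zinc was followed by higher levels of a few of these genes in GRDim mice. In the muscle-rich libraries Cldn4, Cldn3 and Ocln were higher on zinc than on water in GRDim, 3 of the 10 genes, with 0 lower, against 4.46% of all genes called higher and 3.24% called lower. Cldn4 had 67.5, 57.3 and 45.0 CPM on water and 113, 105 and 83.6 CPM on zinc, a log2 fold change of 0.81 ± 0.20 (SE, adjusted p = 0.0437). It was the 1 gene of the list past the cut of 0.8, as 0.771% of all genes were. Ocln had 198, 210 and 195 CPM on water and 252, 251 and 234 CPM on zinc, a log2 fold change of 0.27 ± 0.06 (SE, adjusted p = 0.0177). Cldn3 had 303, 295 and 295 CPM on water and 355, 381 and 358 CPM on zinc, with 0.27 ± 0.07 (SE, adjusted p = 0.0334) on the log2 scale. F11r and Cldn7 had no overlap between the groups either but did not pass, with log2 fold changes of 0.18 ± 0.07 (SE, adjusted p = 0.127) and 0.21 ± 0.07 (SE, adjusted p = 0.0746), so that 5 genes had no overlap, as 17.5% of all genes did. This comparison sets 3 ileum-labelled libraries against 3 IEC-labelled ones. With the label as covariate 0 of the 10 genes passed and 0.677% of all genes were called higher. The label term comes from GRWT libraries alone, so this fit cannot separate label from zinc in GRDim mice. In that fit Cldn4 stood at 0.80 ± 0.31 (SE, adjusted p = 0.226), Ocln at 0.30 ± 0.09 (SE, adjusted p = 0.119) and Cldn3 at 0.17 ± 0.10 (SE, adjusted p = 0.388) on the log2 scale. Markers moved here too, with 12868 to 15755 CPM for the villus enterocyte sum on zinc against 10349 to 10676 CPM on water and 5 of 9 tested higher. The sum of the 10 epithelial markers was higher on zinc without overlap, at 16091 to 16590 CPM against 14404 to 15361 CPM, with 0 of the 10 passing singly. Scaled to these markers, 1 gene of the list passed as higher, against 2.65% of all genes. That gene was Cldn4 (log2 fold change 0.73 ± 0.17, SE, adjusted p = 0.0312), while Cldn3 (0.19 ± 0.07, SE, adjusted p = 0.0856) and Ocln (0.19 ± 0.06, SE, adjusted p = 0.0607) did not pass. The ileal segment sum was 6337 to 10655 CPM on zinc against 5641 to 7086 CPM on water, with 3 of 6 markers higher, while 2 of 8 goblet cell markers were higher and 2 of 8 leukocyte markers lower. The part of these markers was not tested. The number of genes passing also varied with single libraries, being 0 without GRDim water replicate 4, GRDim water replicate 6, GRDim zinc replicate 1 or GRDim zinc replicate 2, 1 without GRDim water replicate 5 and 6 without GRDim zinc replicate 3. The share of all genes called in those fits is not given, so these counts are not read as a result about the 10 genes. The call of Cldn4 was held in 2 of the 12 fits that left out 1 library, that of Cldn3 in 7 and that of Ocln in 8. For Cldn4 it was lost in 5 of the 6 fits that dropped a GRWT library too, with adjusted p of 0.0509 to 0.0657 and the log2 fold change at 0.81. In the muscle-poor set with all 10 libraries, the log2 fold change of Ocln for zinc in GRDim was -0.07 ± 0.11 (SE). Cldn3 was at 0.10 ± 0.12 (SE) and Cldn4 at 0.37 ± 0.31 (SE) there. The groups overlapped for Ocln and Cldn3, and none of these genes passed.

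In GRWT mice no gene of the list passed for zinc in the muscle-rich libraries. The count was 0 of 10 by edgeR and 0 by DESeq2, where 0.383% of all genes were called by edgeR. At an unadjusted p under 0.05 there were 2 of the 10, beside 11.5% of all genes at that cut. Those were Cldn8, at 33.3, 30.5 and 26.7 CPM on water and 38.9, 36.9 and 34.8 CPM on zinc (log2 fold change 0.30 ± 0.12, SE, adjusted p = 0.378), and Tjp1 (log2 fold change -0.14 ± 0.06, SE, adjusted p = 0.414). The 95% intervals of the 10 genes reached from -0.32 (Cldn2) to 0.64 (Cldn4), so changes of that size were not excluded. Cldn4, for example, had 125, 122 and 87.0 CPM on water and 112, 126 and 143 CPM on zinc, with overlap.

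The effect of zinc was not shown to differ between the genotypes. For the interaction 0 of the 10 genes passed by edgeR in the muscle-rich libraries, with 0.263% of all genes called. At an unadjusted p under 0.05 there were 4 of the 10, and 15.5% of all genes. Ocln was nearest, at an interaction of 0.33 ± 0.09 (SE, log2, adjusted p = 0.111), and it was the 1 gene that passed in DESeq2 (0.34, adjusted p = 0.0112). Cldn4 had an interaction of 0.61 ± 0.28 (SE, 95% interval -0.02 to 1.24, adjusted p = 0.338). The 3 comparisons above share libraries, so that a low GRDim water group enters the genotype difference on water, the zinc effect in GRDim and the interaction.

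**Figure D3:**
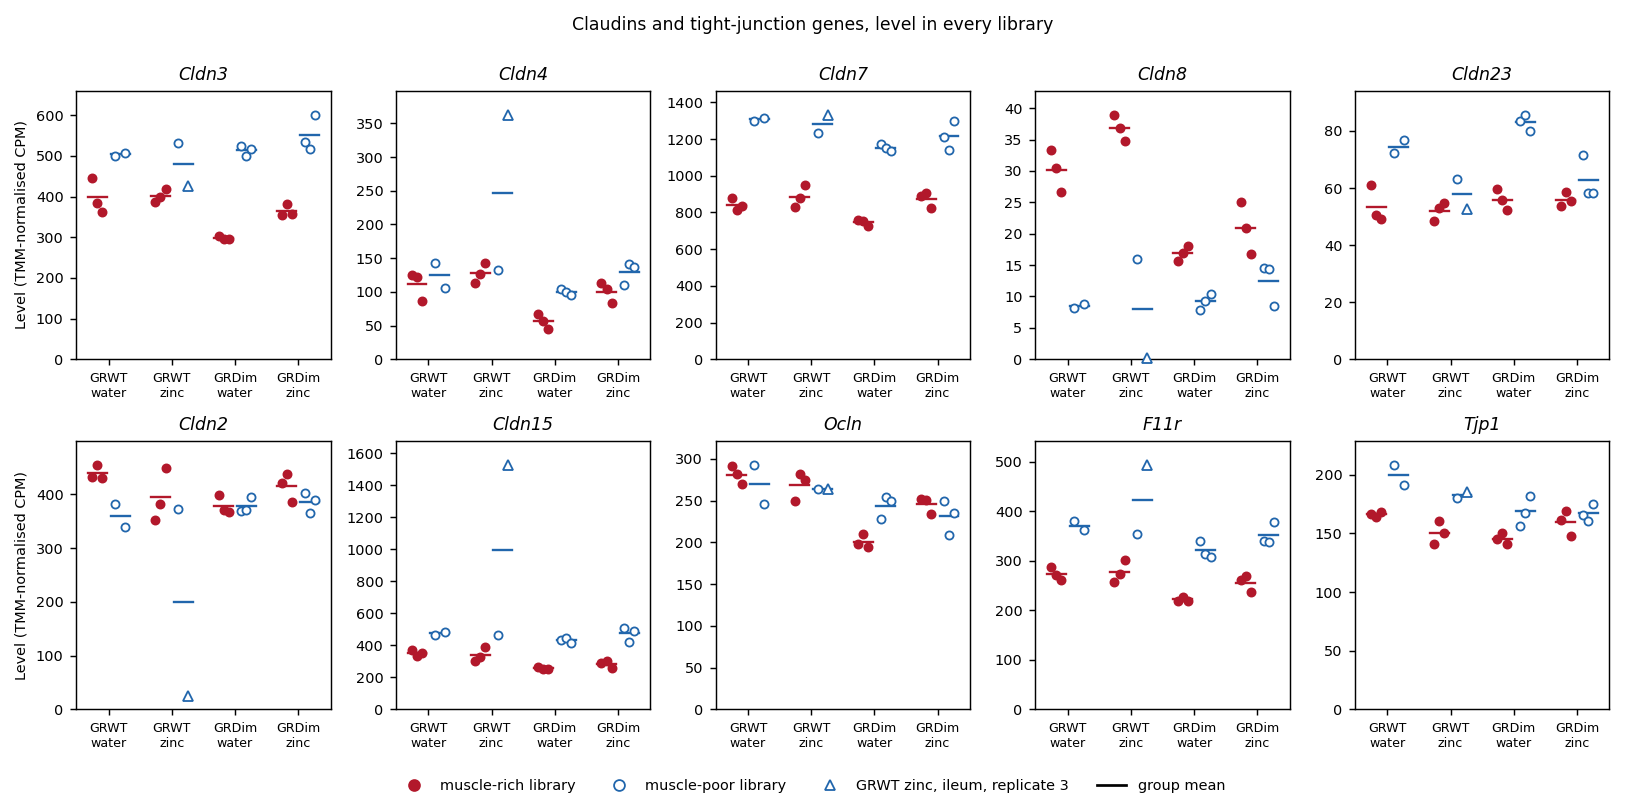
Level of the 10 genes in every library in TMM-normalised CPM by condition, filled red for muscle-rich and open blue for muscle-poor libraries, with lines at group means and a triangle for GRWT zinc ileum replicate 3. In the muscle-rich set GRDim on water has the lowest mean for every gene but Cldn23, and the triangle is far from the other points for Cldn2, Cldn4, Cldn8 and Cldn15.

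The muscle-poor libraries showed less. With all 10 libraries 0 of the 10 genes passed in any of the 5 comparisons by edgeR or by DESeq2. At an unadjusted p under 0.05 there were 3 genes for zinc in GRWT (17.1% of all genes), 1 for zinc in GRDim (7.89%), 1 for genotype on water (5.63%), 2 for genotype on zinc (22.9%) and 0 for the interaction (4.66%). Few genes of any kind passed after adjustment, with 0.0431% of all 13908 genes tested for zinc in GRWT, 0.0575% for zinc in GRDim, 0.0288% for genotype on water, 0.0575% for genotype on zinc and 0% for the interaction. Without GRWT zinc ileum replicate 3 the fit held 9 libraries and 14339 genes. GRWT on zinc was then 1 library, so that zinc in GRWT, genotype on zinc and the interaction took its spread from the other groups, and these 3 comparisons gave 0 calls among the 10 genes. At an unadjusted p under 0.05 they had 1, 0 and 0 of the 10, against 9.64%, 9.51% and 4.07% of all genes. In the other 2 comparisons 1 gene of the list passed. Cldn23 was lower on zinc in GRDim, with 83.5, 85.6 and 79.8 CPM on water and 71.7, 58.1 and 58.3 CPM on zinc, where the groups did not overlap. Its log2 fold change was -0.40 ± 0.09 (SE, adjusted p = 0.0216), with 2.11% of all genes called lower, and with all 10 libraries -0.40 ± 0.11 (SE, adjusted p = 0.432). At an unadjusted p under 0.05 there were 3 of the 10, against 22.1% of all genes. The libraries compared were labelled ileum on water and IEC on zinc. Between them the leukocyte sum was 169 to 206 CPM on water and 92.9 to 153 CPM on zinc, and the villus enterocyte sum 20909 to 21296 against 23255 to 27340 CPM, both without overlap. The proximal small-intestine sum (184.7 to 199.8 against 205.8 to 246.5 CPM) and the enteric glia and neuron sum (2.88 to 4.00 against 5.83 to 12.1 CPM) were higher on zinc without overlap too. The part of these markers was not tested. In the muscle-rich set Cldn23 had a log2 fold change of -0.02 ± 0.08 (SE) for zinc in GRDim.

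For the genotypes on water, the muscle-poor libraries gave 0 calls among the 10 genes without that library, against 2.27% of all genes called lower. At an unadjusted p under 0.05 there were 4 of the 10, against 18.5% of all genes. Cldn4 had 143 and 106 CPM in GRWT and 104, 100 and 95.5 CPM in GRDim, a log2 fold change of -0.32 ± 0.13 (SE, adjusted p = 0.212). Tjp1 had 208 and 192 CPM in GRWT and 157, 168 and 182 CPM in GRDim, at -0.25 ± 0.08 (SE, adjusted p = 0.135). The value of Cldn4 hung on the GRWT pair, being -0.09 without GRWT water replicate 2 and -0.52 without GRWT water replicate 3 in the fits of the muscle-poor set that left out 1 library. F11r stood at -0.22 ± 0.08 (SE, adjusted p = 0.169) and Cldn7 at -0.18 ± 0.08 (SE, adjusted p = 0.239). With all 10 libraries the fold changes were close to these and the errors wider, as for Cldn4 (-0.33 ± 0.35, SE, adjusted p = 0.978) and Tjp1 (-0.25 ± 0.11, SE, adjusted p = 0.88). The libraries did not overlap for these 4 genes and Cldn15, lower in GRDim, nor for Cldn23, which was higher in GRDim (79.8 to 85.6 against 72.4 to 76.6 CPM). That is 5 genes lower and 1 higher, where 20.8% and 20.9% of all genes did not overlap. Marker sums there were lower in GRDim without overlap for villus enterocytes (29209 to 32192 CPM in GRWT and 20909 to 21296 CPM in GRDim), goblet cells (17154 to 17240 against 13733 to 14318 CPM), Paneth cells (4199 to 5798 against 3267 to 4139 CPM) and the ileal segment (14519 to 14802 against 11234 to 12452 CPM). The leukocyte sum was higher, at 111 to 154 CPM in GRWT and 169 to 206 CPM in GRDim. The part of these markers was not tested. Cldn3 had 500.5 and 508 CPM in GRWT and 525, 499 and 517 CPM in GRDim, which overlapped, with a log2 fold change of 0.02 ± 0.08 (SE). Cldn8 had 8.19 and 8.86 CPM in GRWT and 7.85, 9.35 and 10.4 CPM in GRDim, at 0.11 ± 0.22 (SE).

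The genotype difference on water was then compared between the 2 sets of libraries in 1 fit, a test added after the data had been seen. Without GRWT zinc ileum replicate 3, the log2 fold change of Cldn3 was lower in the muscle-rich than in the muscle-poor set by a difference of -0.44 ± 0.11 (SE, adjusted p = 0.0176), and that of Cldn8 by -0.95 ± 0.26 (SE, adjusted p = 0.0327). The other 8 genes did not pass, and 7.11% of all 16868 genes tested did. For Ocln the difference was -0.34 ± 0.11 (SE, adjusted p = 0.0668) and for Cldn4 it was -0.66 ± 0.28 (SE, adjusted p = 0.184). With all 22 libraries 0 of the 10 genes passed in edgeR (2, Cldn3 and Ocln, had an unadjusted p under 0.05), where 1.31% of all 16389 genes did, and Cldn3 had the same difference with a wider error, -0.44 ± 0.14 (SE, adjusted p = 0.151). The GRDim libraries of the sets carry different labels, so set and label cannot be told apart here.

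**Figure D4:**
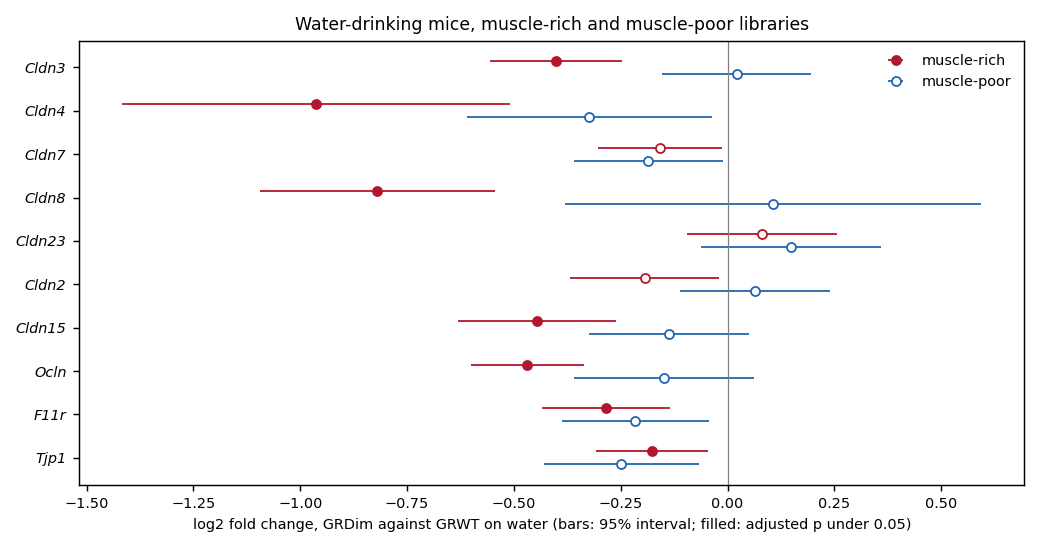
Log2 fold change of GRDim against GRWT on water for each gene, in the 12 muscle-rich libraries and in the 9 muscle-poor libraries left without GRWT zinc ileum replicate 3, with 95% intervals and filled points where the adjusted p was under 0.05. Cldn3 and Cldn8 lie at -0.40 and -0.82 in the muscle-rich set and near 0 in the muscle-poor set, while F11r, Tjp1 and Cldn7 have like values in both.

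Levels also differed between the sets themselves, which is given as a description since the sets were divided on these data. Leaving out GRWT zinc ileum replicate 3, Cldn3, Cldn7, Cldn15 and F11r were higher in muscle-poor than in muscle-rich libraries of every condition without overlap, 4 of the 10 genes, as 21.4% of the 10871 genes with at least 5 CPM were. The ratio of the means by condition was 1.39 to 1.55 for Cldn7, 1.27 to 1.73 for Cldn3, 1.34 to 1.69 for Cldn15 and 1.27 to 1.45 for F11r, and it was 1.24 to 1.39 for the epithelial marker Epcam. Cldn8 went the other way in every condition, 1.67 to 3.54 times higher in muscle-rich libraries without overlap, as 12.9% of those genes were. It had 15.7 to 38.9 CPM in muscle-rich and 7.85 to 15.9 CPM in the 9 muscle-poor libraries. Cldn2 overlapped between the sets in 3 conditions and was 1.22 times higher in muscle-rich libraries without overlap in GRWT on water (431 to 454 against 340 to 381 CPM). Ocln likewise overlapped in 3 conditions and was 1.21 times higher in muscle-poor libraries without overlap in GRDim on water (227 to 254 against 195 to 210 CPM).

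GRWT zinc ileum replicate 3 had its own claudin profile. It held 25.6 CPM of Cldn2, against 340 to 403 CPM in the other 9 muscle-poor libraries, and 2 counts of Cldn8 (0.214 CPM), under the floor of 3 counts (0.320 CPM in that library), against 7.85 to 15.9 CPM. In the other direction it held 1526 CPM of Cldn15, against 417 to 511 CPM, 362 CPM of Cldn4, against 95.5 to 143 CPM, and 493 CPM of F11r, against 308 to 380 CPM. Cldn3 (425 CPM, against 499 to 600.2 CPM) and Cldn23 (52.8 CPM, against 58.1 to 85.6 CPM) were under the range of the others, and Cldn7 (1331 CPM, against 1136 to 1314 CPM) was over it. Ocln (263 CPM) and Tjp1 (186 CPM) were within it. Thus the channel claudins Cldn2 and Cldn15 stood apart in opposite directions in the same library. Its sum of villus enterocyte markers was 113785 CPM, against 20909 to 32192 CPM, and its sum of ileal markers 434 CPM, against 11234 to 14802 CPM. A single library gives no test of this.

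**Figure D5:**
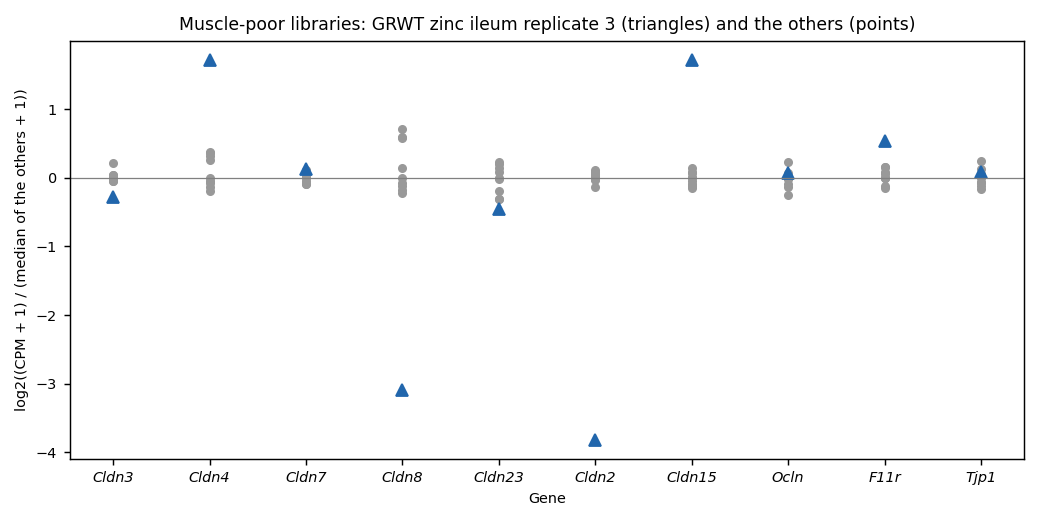
Log2 ratio of each muscle-poor library to the median of the other 9 for each gene, with 1 CPM added to both, as triangles for GRWT zinc ileum replicate 3 and points for the 9 others. The triangle is lowest for Cldn2 and Cldn8, at 25.6 and 0.214 CPM, and highest for Cldn4 and Cldn15, at 362 and 1526 CPM.

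Among the 26 other claudins that were matched, most were at or near 0. No read was counted in any library for 13 of them, and 3 of the 26 were tested in the muscle-rich set. Cldn12, a widely expressed claudin, had 50.6 to 73.5 CPM over all libraries. It was lower in GRDim than in GRWT on water (log2 fold change -0.23 ± 0.07, SE, adjusted p = 0.0186) and on zinc (-0.21 ± 0.07, SE, adjusted p = 0.0459). Cldn5, the claudin of endothelium, was at 3.78 to 7.72 CPM in the muscle-rich libraries and at or under 0.107 CPM in the muscle-poor ones. It was lower in GRDim on water (-0.58 ± 0.17, SE, adjusted p = 0.0162). Cldn1 had 0.232 to 2.59 CPM over all libraries and did not pass in any comparison.

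Of 41 other genes of the tight junction 40 were tested in the muscle-rich set, and on water 16 were lower and 5 higher in GRDim, with the background of 18.9% and 19.7% given above. Prkcz, a polarity kinase, had a log2 fold change of -0.71 ± 0.10 (SE, adjusted p = 9.88e-05) and Amotl2, an angiomotin family member, -0.87 ± 0.13 (SE, adjusted p = 0.000148). Tjap1, a junction-associated protein, was at -0.42 ± 0.07 (SE) and Lsr, a protein of contacts between 3 cells, at -0.37 ± 0.06 (SE). Marveld2, which encodes tricellulin, had -0.35 ± 0.06 (SE, adjusted p = 0.000264). Ildr1, which acts at the same tricellular contacts as Lsr, went the other way. It had 15.8, 16.7 and 12.4 CPM in GRWT and 38.4, 33.8 and 33.1 CPM in GRDim on water, with no overlap and a log2 fold change of 1.24 ± 0.14 (SE, adjusted p = 1.31e-05). On zinc 4 of the 40 were higher and 4 lower in GRDim, shares like the 9.81% and 9.00% of all genes, among them Amot (0.55 ± 0.09, SE), Prkci (0.26 ± 0.05, SE) and Ildr1 (0.69 ± 0.14, SE) higher, and Lsr (-0.27 ± 0.06, SE) and Tjap1 (-0.29 ± 0.07, SE) lower.

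For zinc in GRDim 5 of the 40 were higher and 2 lower, against 4.46% and 3.24% of all genes, with the same confounding by label. Ildr1 had 38.4, 33.8 and 33.1 CPM on water and 19.7, 17.98 and 26.9 CPM on zinc, with no overlap and a log2 fold change of -0.73 ± 0.13 (SE, adjusted p = 0.00586). Jaml, a junctional adhesion molecule of leukocytes, was lower (-0.40 ± 0.09, SE), and Patj (0.30 ± 0.07, SE), Prkcz (0.41 ± 0.10, SE), Wnk4 (0.62 ± 0.15, SE) and Magi3 (0.24 ± 0.07, SE) were higher. For zinc in GRWT 0 of the 40 passed by edgeR, with 9 at an unadjusted p under 0.05, against 11.5% of all genes. In the muscle-poor set 37 were tested and 0 passed in any comparison with all 10 libraries, with 7 for zinc in GRWT, 7 for zinc in GRDim, 1 for genotype on water, 8 for genotype on zinc and 1 for the interaction at an unadjusted p under 0.05, beside the shares of all genes given above for these comparisons. Without GRWT zinc ileum replicate 3, 4 were higher and 2 lower on zinc in GRDim, against 3.03% and 2.11% of all genes, and 0 passed in the other 4 comparisons. Prkcz (0.38 ± 0.07, SE), Patj (0.42 ± 0.08, SE), Wnk4 (0.79 ± 0.17, SE) and Sympk (0.33 ± 0.09, SE) were higher, and Ildr1 (-0.61 ± 0.14, SE) and Magi2 (-1.38 ± 0.35, SE) lower, again between libraries labelled IEC and ileum.

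Across the 12 muscle-rich libraries several of the 10 genes varied together, which is a description since the libraries share conditions. Pearson's r of log2 levels was 0.94 for Cldn3 and F11r, 0.94 for Ocln and F11r, 0.93 for Cldn3 and Ocln, 0.93 for Cldn4 and F11r and 0.92 for Cldn3 and Cldn4. Cldn23 stood apart, with r from -0.40 (with Cldn8) to 0.21 (with Cldn2). Cldn2 was most like Tjp1, at 0.73.

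Over all genes with at least 5 CPM, the closest patterns were sought for the 7 genes that passed on water, with levels centred within either set and 22 libraries. F11r was closest to Spint1 (r of 0.97), Src (0.95) and Cdhr2 (0.95), and Spint1 was also closest without GRWT zinc ileum replicate 3 (0.95). Cldn4 was closest to Bcar1 (0.96), Nr1i2 (0.96) and C77080 (0.95), which had r of 0.93, 0.92 and 0.91 without that library. Cldn8 was closest to Acsm3 (0.97), Rnf180 (0.96) and Kcnq1 (0.95), which had 0.90, 0.86 and 0.80 without it. Cldn15 was closest to Dgat1, Crat and Igsf23 (0.98 each), which had 0.88, 0.88 and 0.87 without it. Cldn3 was closest to Dpep1 (0.90), Sct (0.89) and Sspo (0.89). Ocln was closest to Sh3yl1, Cd55 and Sgms2 (0.91 each) and Tjp1 to Cab39 (0.84), Csnk2a1 (0.82) and Ppp6r3 (0.82). Without that library another gene came first for each but F11r. Slc28a1 was first for Cldn8 at 0.93, against -0.44 over all 22 libraries, Tiam2 for Tjp1 at 0.90 against 0.38, and Pgm2 for Ocln at 0.94 against 0.64. Sspo for Cldn3 (0.91 and 0.89), Il22ra1 for Cldn4 (0.94 and 0.90) and Cyp4f13 for Cldn15 (0.91 and 0.95) were close in both.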

How the data were processed

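The authors prepared stranded single-end libraries, mapped reads to mm10 with HISAT2 2.0.4 and obtained gene counts with featureCounts, which ignored multimapping reads. The deposited table holds these raw counts for 54838 genes. The annotation release and strand setting were not given in the sources used here. Names and exon lengths came from GENCODE mouse release M21. A pair of GRDim water columns share 1 name and are unnumbered. The members and lists were chosen with earlier results of these data known.

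Levels are counts scaled to CPM by TMM over 22 libraries, apart from Myh11, which split the libraries by CPM of library totals. Tests used edgeR 4.0.16 (quasi-likelihood, robust, filterByExpr) in R 4.3.3, within muscle-rich and muscle-poor libraries, 4 condition means each, adjusted over all genes, passing at adjusted p under 0.05. DESeq2 1.42.0, other scalings, no filter, pooled fits and left-out libraries were alternatives. The code was tested on simulated data. All 10 genes were named, with at most 6 others a comparison by adjusted p, Myh11 and Mt1, and the 3 most similar genes. Floors cover counting error only, as no molecular identifiers were used. Within a condition and set, no pair of libraries agreed within sampling noise (chi-square per gene 4.47 or more).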

Additional observations from a re-analysis of the deposited data

Results flagged for a closer look

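In 40 groups (10 genes in 4 conditions, both sets together), 5 values lay far from the other libraries of their condition by Dixon's ratio. Chance alone does so in about 1 in 20 groups of like libraries, a rate that does not hold where both sets are mixed. In GRWT on zinc, ileum replicate 3 had 25.6 CPM of Cldn2, 362 CPM of Cldn4 and 1526 CPM of Cldn15, as described above. Ileum replicate 2 of the same condition had 532 CPM of Cldn3, the highest of the 5. That value lies within the 499 to 600.2 CPM of the muscle-poor libraries without replicate 3, and the other 3 libraries of its condition besides replicate 3 are muscle-rich. In GRDim on zinc, IEC replicate 4 had 71.7 CPM of Cldn23. It is a muscle-poor library, and the value lies within the 58.1 to 85.6 CPM of that set without GRWT zinc ileum replicate 3.

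The genotype difference on water differed between muscle-rich and muscle-poor libraries, by the test of that difference without GRWT zinc ileum replicate 3, for Cldn3 (-0.44 on the log2 scale) and Cldn8 (-0.95). That test was added after the data had been seen, and the library left out was on zinc, outside the groups compared. With that library included neither passed.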

How the results depend on the processing

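Counts of the 10 genes that passed are given here. The share of all genes called moves with the fit as well. For genotype on zinc in the muscle-rich set, 9.00% of all genes were called lower in the main fit and 19.9% under epithelial scaling. Shares are not given for every fit below, so a changed count is not read as a result about these 10 genes. Of the 12 gene results that passed in the muscle-rich set, none changed direction in any alternative, and of their 288 values under the alternatives 196 still passed. The alternatives reuse the muscle-rich libraries, so a kept direction was likely in advance, and the muscle-poor set alone is not among them. In that set with all 10 libraries the sign was opposite for Cldn3 (log2 fold change 0.02) and Cldn8 (0.10) on water. It was also opposite for Cldn8 (0.59) for genotype on zinc and Ocln (-0.07) for zinc in GRDim, none passing. The other gene results had the same sign there. For genotype on water the count of 7 became 2 with the cut at 0.8, 4 with all 22 libraries and the muscle split, 1 with the tissue label or no covariate, and 6 to 9 with 1 library left out. For zinc in GRDim the count of 3 became 1 with the cut at 0.8 or epithelial scaling, 0 with all 22 libraries under any covariate or with the label as covariate in the muscle-rich set, and 0 to 6 with 1 library left out. For genotype on zinc the count of 2 became 1 with the cut at 0.8 or with the label as covariate, 6 with epithelial scaling, 0 with all 22 libraries, and 1 to 3 with 1 library left out. It was 1 (Cldn8) without GRWT water replicate 5, GRWT zinc replicate 4 or 5, GRDim water replicate 5 or 6, or GRDim zinc replicate 1 or 3. The interaction count of 0 became 1 in DESeq2 and 0 to 1 with 1 library left out, and zinc in GRWT stayed at 0. All 22 libraries but GRWT zinc ileum replicate 3, with the muscle split, gave 8, 1, 1 and 0 for genotype on water, genotype on zinc, zinc in GRDim and zinc in GRWT, against 0, 0, 1 and 0 in the muscle-poor set alone without that library. The pooled fits with that library gave 4 (split) and 1 (label or none) on water. In the muscle-poor set leaving out 1 library gave 0 to 6 for zinc in GRWT, 0 to 1 for zinc in GRDim, 0 for genotype on water, 0 to 6 for genotype on zinc and 0 to 4 for the interaction. The counts of 6 and 4 came without GRWT zinc replicate 2, which left replicate 3 as the only library of its group, whose spread was then taken from the other groups. The cause of these shifts was not tested. With the replicate block and the split on the numbered libraries, 1 gene (Ocln) passed on water and 0 elsewhere, against 3 without the block, and same-numbered libraries deviated with r of -0.19 to 0.18, so the numbers were not taken as pairs. Epithelial scaling moved the median of all genes most for genotype on zinc in the muscle-poor set (-0.32, log2). Cldn8 had at most 209 counts a library in the muscle-poor set, and the part of depth in its spread was not tested.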
